A study of Mus musculus with 4 samples.

Results

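The CaMKII and calcineurin signalling genes are 9 genes of calcium signalling at the synapse: the CaMKII subunit genes Camk2a, Camk2b, Camk2d and Camk2g, the genes of the CaMKII inhibitor Camk2n1 and of neurogranin (Nrgn), and the calcineurin subunit genes Ppp3ca, Ppp3cb and Ppp3r1. They were taken by name from the 21938 protein-coding genes of GENCODE release M21 on mm10, and all 9 were found. Their promoters were examined for trimethylation of lysine 4 of histone H3 (H3K4me3), a mark of active and poised promoters. It was mapped by chromatin immunoprecipitation and sequencing in left cerebral cortex of adult female mice aged 2 months, for which the labels give no treatment. The mice were B6CASTF1/J, hybrids of the inbred strains C57BL/6J and CAST/EiJ, and there were 2 groups, the labelled biological replicate 1, called pool J, and biological replicate 2, called pool I. Each pool combined 4 tissue samples and was sequenced as 2 technical replicates. Both groups shared strain, sex, age, tissue and a single donor record, and nothing in the labels says whether the tissue samples came from separate animals, so a difference between the pools may be technical. Both libraries of a pool entered 1 list of peaks. A further list, termed replicated, was derived from the reads of both pools.

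CaMKII is a kinase that calcium-bound calmodulin switches on and that then keeps itself active by autophosphorylation, a process central to long-term potentiation at excitatory synapses. Calcineurin is the phosphatase that calcium and calmodulin activate, and it acts against the kinase in synaptic depression. It also dephosphorylates NFAT transcription factors, which lets them enter the nucleus. The alpha and beta subunits of CaMKII, the inhibitor Camk2n1 and neurogranin are made mainly in neurons, and Camk2a and Nrgn are typical of forebrain excitatory neurons. The delta and gamma subunits of CaMKII and the calcineurin subunits are made in many tissues, although Ppp3ca is abundant in brain. Camk2a, Camk2b, Camk2n1 and Nrgn are therefore called neuronal here, and Camk2d, Camk2g, Ppp3ca, Ppp3cb and Ppp3r1 ubiquitous.

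RefSeq promoter sequences of build GRCm38.p6, from 250 bases before the start to 50 after it, were at hand for 5 of the 9 genes, Camk2b, Camk2d, Nrgn, Ppp3cb and Ppp3r1. The 4 printed here set a neuronal against a ubiquitous kinase subunit (Camk2b at chr11:6065699-6065998, minus strand, and Camk2d at chr3:126596701-126597000, plus strand), and a gene with a very wide domain against the one with the narrowest (Nrgn at chr9:37552696-37552995 and Ppp3cb at chr14:20546524-20546823, both minus strand). Each is written 5′ to 3′ in the direction of the gene, and capitals mark the GC box GGGCGG on either strand. The RefSeq start was the same as the 5′-most GENCODE coding start, used for distances below, at Camk2b, Camk2d and Ppp3cb. It lay 35 bases downstream of that start at Ppp3r1 and 159 at Nrgn.
Camk2b: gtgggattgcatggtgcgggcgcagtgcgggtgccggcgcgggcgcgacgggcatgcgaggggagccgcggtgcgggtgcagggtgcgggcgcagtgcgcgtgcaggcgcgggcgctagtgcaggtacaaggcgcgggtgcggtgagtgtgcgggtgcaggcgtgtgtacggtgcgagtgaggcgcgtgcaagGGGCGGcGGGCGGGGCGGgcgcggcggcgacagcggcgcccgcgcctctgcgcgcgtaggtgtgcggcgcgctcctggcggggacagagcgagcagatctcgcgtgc
Camk2d: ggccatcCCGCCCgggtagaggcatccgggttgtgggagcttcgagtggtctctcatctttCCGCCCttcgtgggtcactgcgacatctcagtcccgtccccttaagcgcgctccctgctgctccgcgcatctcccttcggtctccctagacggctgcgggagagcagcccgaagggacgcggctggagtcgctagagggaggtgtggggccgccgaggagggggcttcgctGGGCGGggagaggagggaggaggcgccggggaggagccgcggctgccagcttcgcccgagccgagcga
Nrgn: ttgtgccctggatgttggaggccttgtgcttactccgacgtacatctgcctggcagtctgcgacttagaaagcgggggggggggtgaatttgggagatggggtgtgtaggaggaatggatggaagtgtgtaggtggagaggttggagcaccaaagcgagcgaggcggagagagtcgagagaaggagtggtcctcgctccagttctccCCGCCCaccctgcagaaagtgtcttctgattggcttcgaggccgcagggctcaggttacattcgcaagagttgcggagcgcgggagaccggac
Ppp3cb: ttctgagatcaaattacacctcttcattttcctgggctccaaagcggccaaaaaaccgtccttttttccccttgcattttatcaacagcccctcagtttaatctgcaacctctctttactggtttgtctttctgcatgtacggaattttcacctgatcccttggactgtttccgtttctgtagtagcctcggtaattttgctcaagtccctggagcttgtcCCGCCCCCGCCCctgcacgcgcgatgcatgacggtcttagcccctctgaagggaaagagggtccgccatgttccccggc

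These promoters differed widely in CpG dinucleotides, the context in which H3K4me3 is usually found. The Camk2b promoter held 51 CpG in its 300 bases, Ppp3r1 36, Camk2d 31, Nrgn 17 and Ppp3cb 13, against a median of 7 over the 32851 promoters of the table. The observed-to-expected CpG ratio was 1.28 for Camk2b, 0.978 for Ppp3r1, 0.846 for Camk2d, 0.709 for Nrgn and 0.703 for Ppp3cb, with a median of 0.384 over the table. Nrgn and Ppp3cb thus had nearly the same ratio, while the domain of Nrgn was 8917 bases wide in the replicated list and that of Ppp3cb 2091. In pool J the widths were 4883 and 1974 bases, and in pool I 8727 and 2117. Whether the ratio bears on width was not tested. A GC box, searched as GGGCGG on both strands with overlaps counted, was present in each of the 5: 4 times in Ppp3r1, 3 times in Camk2b and in Camk2d, 2 times in Ppp3cb and 1 time in Nrgn. It was present in 35.7% of all promoters of the table. The half-site TGACG of the cyclic AMP response element, searched on both strands, occurred 1 time each in Ppp3cb and Ppp3r1, against 20.8% of all promoters with at least 1. Neither TATAAA (13.6% of promoters) nor the full element TGACGTCA, which contains the half-site (1.79%), was found in these 5 windows. Such matches describe the letters alone. The Camk2b window also showed a break in the mark: its highest replicated peak began 110 bases after the start site and a weaker one ended 5 bases before it, so that 246 of the 300 bases lay under a peak, whereas all 300 did at the other 4.

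All 9 promoters carried the mark. A promoter was called marked when a peak lay within 1000 bases of any annotated transcript start, and 9 of 9 genes were marked in each of the replicated, pool J and pool I lists, against 65.2%, 63.9% and 64.8% of all protein-coding genes. Peaks up to 1000 bases apart were joined into a domain, and the widest such domain of a gene gave its width. The median domain of the 9 spanned 4883 bases in pool J, 5261 in pool I and 4943 in the replicated list. Over all marked protein-coding genes it was 2026, 2193.5 and 2124 bases in the same order. Of the 9, 8 were wider than the median gene in each list, and Ppp3cb was the exception in each. In the replicated list 4 of 9 (Camk2a, Nrgn, Camk2n1 and Ppp3ca) exceeded the width that set apart the widest 5.0% of marked genes (715 of 14293). In pool J 5 of 9 did so (Camk2g in addition), against 5.0% (702 of 14027), and in pool I the same 4 as in the replicated list, against 5.01% (712 of 14222). Those thresholds were 5166.4, 4744.7 and 5301.9 bases. Since the tissue was a mixture of cells, a mark in fewer cells and less of it per cell cannot be told apart. With 1 list per pool, and with members chosen by name, no test was made.

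**Figure D1:**
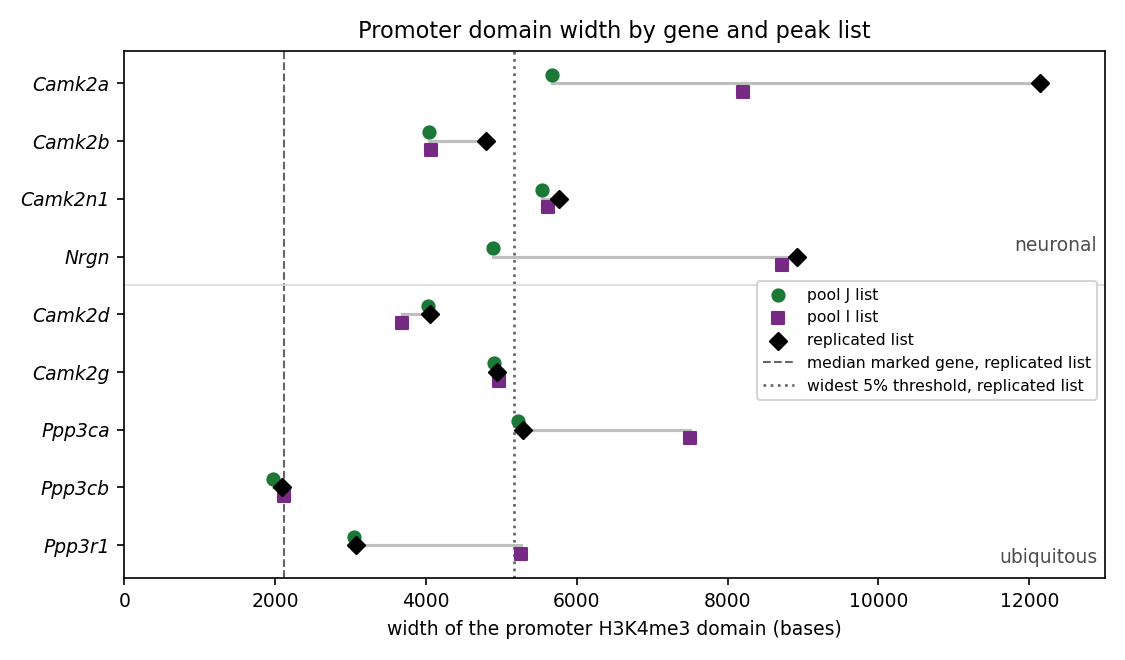
Width in bases (x axis) of the promoter H3K4me3 domain of each gene (y axis) in the pool J list (green circles), the pool I list (purple squares) and the replicated list (black diamonds), with grey bars from the lowest to the highest of the 3. Ppp3cb lies at the median of all marked genes (dashed line, 2124 bases), and Camk2a, Nrgn, Ppp3ca and Ppp3r1 spread widely between the lists while the other 5 do not.

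Camk2a, which encodes the alpha subunit, the most abundant kinase subunit of forebrain neurons, had a domain of 12141 bases in the replicated list, but of 5668 in pool J and 8203 in pool I (mean of the pools 6935.5 ± 1792.5, SD, n = 2). The replicated domain lay at 18:60924699-60936839, ran from 919 bases before the 5′-most coding start to 11221 after it and covered 17.9% of the gene, over the first exon and part of the first intron of its main transcripts. It was built of 7 peaks. The 2 nearest the start were strong, with an enrichment (the authors' value per peak, taken here as a fold over control) of 23.3 and 14.6, and the 5 beyond them weak, between 2.83 and 3.74. The stretch under the 2 strong peaks was much alike in the lists: keeping only peaks whose −log10 q was 10 or more, the domain spanned 5668 bases in pool J, 6101 in pool I and 5901 in the replicated list. The lists differed in the weak peaks farther into the gene and in which gaps between them fell under the joining distance of 1000 bases. In pool J a gap of 1474 bases followed the strong peaks, and in pool I a gap of 1070 bases, just over that distance, ended the domain, while a peak of 1996 bases and enrichment 4.56 lay beyond it. The replicated width of Camk2a was thus reached in neither pool.

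Camk2b, the beta subunit gene, whose product binds actin filaments in spines, had one of the steadiest domains. It spanned 4040 bases in pool J, and 4073 bases in pool I (mean 4056.5 ± 23.3, SD, n = 2 pools). In the replicated list it reached 4800 bases, at 11:6061534-6066333, because of a peak of 202 bases with an enrichment of 3.0 that was in neither pool list. Without that peak the width was 4064. The highest peak, of 3369 bases and an enrichment of 25.0, lay wholly downstream of the start.

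Of the 2 ubiquitous kinase subunit genes, one was wider than Camk2b in each pool and the other slightly narrower. Camk2d, the delta subunit gene known above all from heart muscle, had domains of 4023 bases in pool J, 3680 in pool I (mean 3851.5 ± 242.5, SD, n = 2 pools) and 4059 in the replicated list, at 3:126595823-126599881. Camk2g, the gamma subunit gene, had 4904 in pool J, 4964 in pool I (mean 4934 ± 42.4, SD, n = 2 pools) and 4943 in the replicated list, at 14:20789864-20794806, as a single peak of enrichment 28.6. In both pools Camk2g was thus wider than Camk2b, and the neuronal and ubiquitous kinase genes overlapped. A start of the lincRNA Gm30108 lay within the Camk2g domain, and one of the antisense gene 1810062O18Rik within that of Ppp3cb. Among the other 7 genes no start of another annotated gene lay in the replicated domain. Since H3K4me3 carries no strand, marks of such pairs cannot be told apart.

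Camk2n1 encodes a small inhibitor that binds and blocks active CaMKII. Its domain was 1 unbroken peak in each list, of 5533 bases in pool J, 5623 in pool I (mean 5578 ± 63.6, SD, n = 2 pools) and 5765 in the replicated list, at 4:138453502-138459266. It covered 85.2% of this short gene of 5810 bases, and in the replicated list its summit lay 1003 bases into the gene, farther in than at the other 8. Both its width and its enrichment of 31.5 were high among marked genes, at percentiles 96.6 and 95.5, where a percentile is the share of marked protein-coding genes with a lower value.

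Nrgn encodes neurogranin, a postsynaptic protein that holds calmodulin when calcium is low. Its replicated domain of 8917 bases at 9:37544267-37553183 spanned the whole gene of 8413 bases, and so did that of 8727 bases in pool I. In pool J the domain stopped at 4883 bases and covered 54.9% of the gene (mean of the pools 6805 ± 2718.1, SD, n = 2). The first peak, with an enrichment of 20.0 in pool J and 20.4 in pool I, was 4883 and 5538 bases wide. Both pools had further peaks near the end of the gene, around the start of the short transcript Nrgn-202: 1 of 2305 bases in pool J and 2 of 1042 and 693 bases in pool I. In pool J a gap of 1764 bases kept them out of the domain and in pool I a gap of 756 bases did not. Counted over the same span of 8727 bases, 6936 bases lay under peaks in pool J and 7273 in pool I, a ratio of 1.05 in place of the 1.79 between the domain widths.

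The 2 catalytic subunit genes of calcineurin among the 9 lay far apart in width. Ppp3ca, which encodes the catalytic subunit most abundant in brain, had a domain of 5215 bases in pool J, 7502 in pool I (mean 6358.5 ± 1617.2, SD, n = 2 pools) and 5281 in the replicated list, at 3:136668861-136674141. Part of the difference lay in the main peak itself, which in pool I ran unbroken for 6223 bases. In pool J it was split into peaks of 3172 and 1957 bases with a gap of 86 bases. Over the span of both domains 5129 bases lay under peaks in pool J and 7232 in pool I, a ratio of 1.41. Ppp3cb, the gene of the beta catalytic subunit, had the narrowest domain of the 9, with 1974 bases in pool J, 2117 in pool I (mean 2045.5 ± 101.1, SD, n = 2 pools) and 2091 in the replicated list, at 14:20545006-20547096. It reached 1567 bases downstream, less far than any of the other 8.

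Ppp3r1 encodes the regulatory subunit, a calcium-binding protein of the calmodulin type. It had the highest enrichment of the 9 in each list, 34.4 in pool J, 31.7 in pool I and 33.2 in the replicated list, where it stood at percentile 98.0. Its width was moderate in pool J with 3047 bases and in the replicated list with 3072, at 11:17158566-17161637, but 5261 in pool I (mean of the pools 4154 ± 1565.5, SD, n = 2). The main peak was nearly the same in both pools, 3047 and 3065 bases. The difference lay in 2 further peaks that pool I had and that neither the pool J nor the replicated list held, of 632 and 303 bases with enrichments of 3.02 and 3.53.

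**Figure D2:**
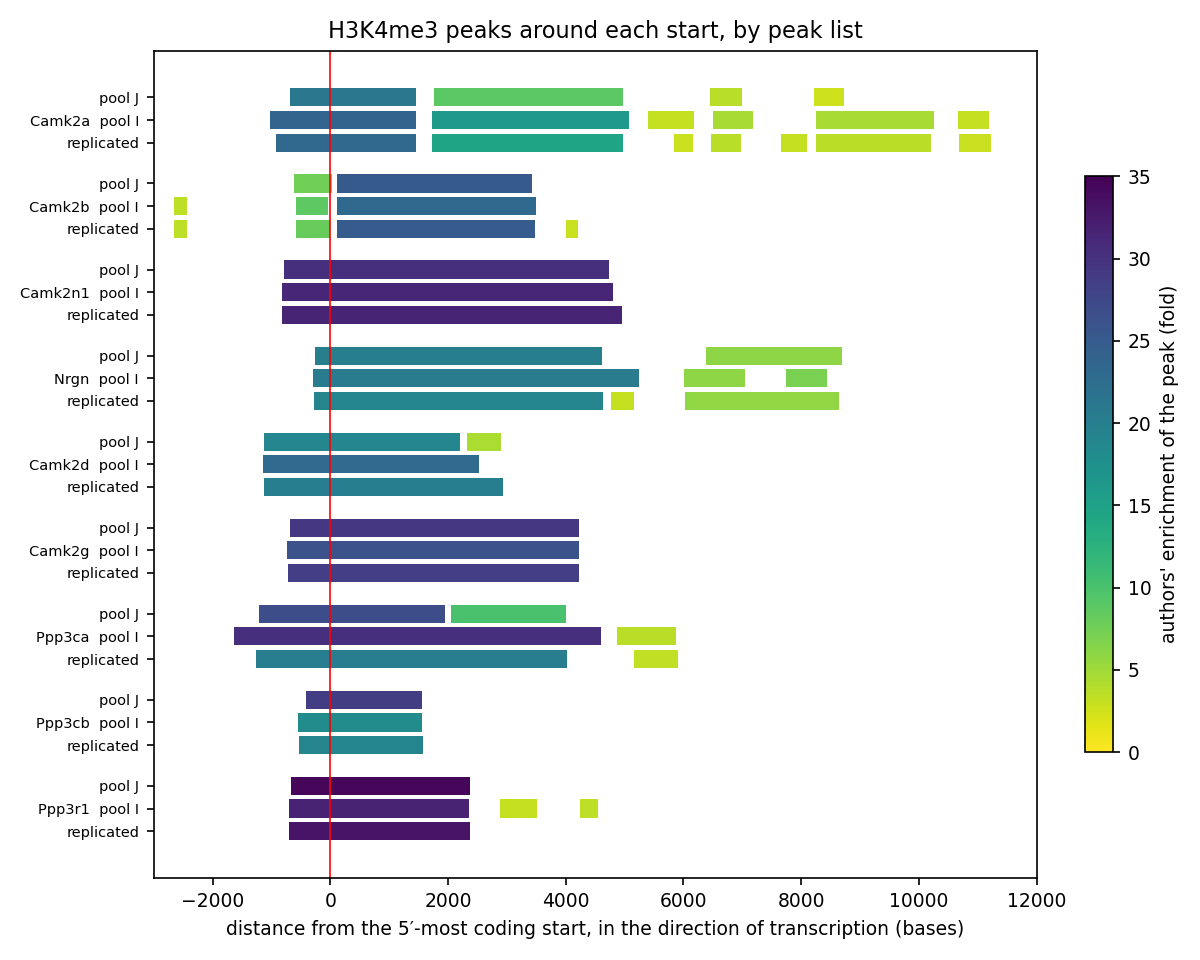
Peaks around the 5′-most coding start (red line) of each gene, with the distance in bases in the direction of transcription on the x axis, 1 row for each of the pool J, pool I and replicated lists, and the colour showing the authors' enrichment. Dark peaks lie next to the start in each list, those of Ppp3ca and Camk2d being split in pool J, and several pale peaks beyond them at Camk2a recur at like positions while the gaps between them differ.

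In the replicated list the mark reached farther downstream of the 5′-most coding start than upstream at all 9 genes. No share over all marked genes is given beside this count or that of the summits below. Neither can therefore be read as particular to the 9. The downstream reach went from 1567 bases at Ppp3cb to 11221 at Camk2a, and the upstream reach from 279 at Nrgn to 1263 at Ppp3ca. The summit of the highest peak lay downstream of the start at 8 of the 9 genes in the replicated list, between 156 bases at Camk2g and 1003 at Camk2n1. Ppp3ca was the exception, with its summit at −364 bases, upstream of the start, in the replicated list, but at 588 downstream in pool J and 1272 in pool I.

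Neuronal genes had wider domains at the median than ubiquitous ones, and the size of that difference depended on weak peaks and on how peaks were joined. In the replicated list the 4 neuronal genes had a median of 7341 bases (range 4800 to 12141) and the 5 ubiquitous genes 4059 (2091 to 5281), a ratio of 1.81. The ratio was 1.29 in pool J (5208 against 4023) and 1.39 in pool I (6913 against 4964). It was 1.31 over peaks whose −log10 q was 10 or more, and 1.02 when peaks were joined only where they touched (a neuronal median of 4139.5). Joining only touching peaks also parted the 2 strong peaks of Camk2a, and its replicated domain was then 3254 bases. The ranges overlapped in each list, since Camk2b was narrower than Camk2g and Ppp3ca in all 3. With Ppp3ca counted as neuronal the ratio was 1.62. Enrichment did not follow the same division: in pool J the neuronal median was 23.1 and the ubiquitous 28.8, in pool I 23.6 and 26.2, and in the replicated list 24.1 and 20.3.

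Width and enrichment ranked the 9 genes differently. By width in the replicated list the order was Camk2a, Nrgn, Camk2n1, Ppp3ca, Camk2g, Camk2b, Camk2d, Ppp3r1 and Ppp3cb. By enrichment in the same list it was Ppp3r1, Camk2n1, Camk2g, Camk2b, Camk2a, Ppp3ca, Camk2d, Ppp3cb and Nrgn. That order differed in the pools, where the lowest was Camk2d in pool J, at 18.9, and Ppp3cb in pool I, at 18.1. Nrgn, at percentile 99.5 of width, stood at 41.3 of enrichment, and Ppp3r1, at 98.0 of enrichment, stood at 76.8 of width. The median enrichment percentile of the 9 was 62.8 in the replicated list. Neighbours in the order of width with pool ranges that overlapped were Camk2a and Nrgn (5668 to 8203 and 4883 to 8727), Camk2n1 and Ppp3ca (5533 to 5623 and 5215 to 7502), Nrgn and Camk2n1, and Camk2d and Ppp3r1 (3680 to 4023 and 3047 to 5261). Ppp3ca (5215 to 7502) and Camk2g (4904 to 4964), Camk2g and Camk2b (4040 to 4073), Camk2b and Camk2d, and Ppp3r1 and Ppp3cb (1974 to 2117) did not overlap. Ppp3cb ranked very differently in the lists by enrichment, at 28.8 and percentile 89.4 in pool J and at 18.1 and percentile 36.8 in pool I. Ppp3ca stood at 26.9 and percentile 82.3 in pool J and at 30.1 and percentile 93.2 in pool I. In the replicated list it was lower than in both pools, at 20.3 and percentile 47.2. These values come from lists scaled separately and show no change in themselves.

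**Figure D3:**
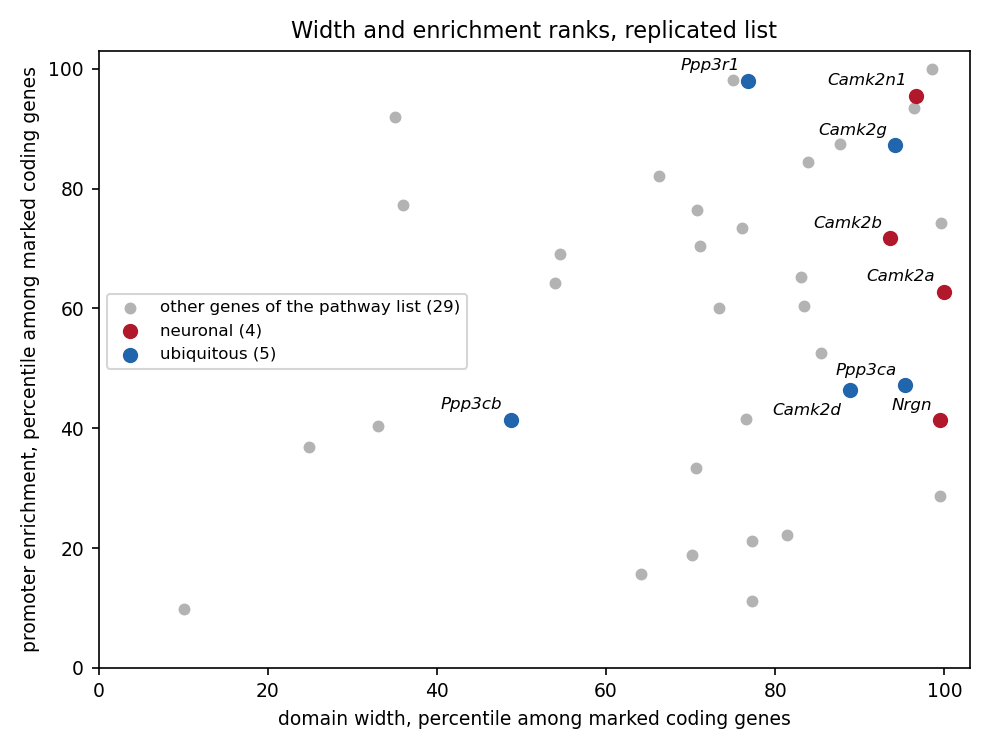
Percentile of domain width (x axis) and of promoter enrichment (y axis) among marked protein-coding genes in the replicated list, for the 4 neuronal genes (red), the 5 ubiquitous genes (blue) and the 29 marked genes of the wider pathway list (grey). Of the 9, 8 lie to the right, between width percentiles 76.8 and 99.9, and spread in enrichment from 41.3 to 98.0.

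Between the pools, 4 of the 9 genes differed in domain width by at least 25%, and all of these were wider in pool I. Nrgn was 1.79 times, Ppp3r1 1.73 times, Camk2a 1.45 times and Ppp3ca 1.44 times as wide in pool I as in pool J. The other 5 had ratios between 0.915 (Camk2d) and 1.07 (Ppp3cb). Genes at least 25% wider in pool I were 4 of 9, against 13.6% of the 13961 protein-coding genes marked in both pools, and 0 of 9 were at least 25% wider in pool J, against 1.63%. At 1.5-fold 2 of 9 were wider in pool I, against 4.24%. The median ratio of the 9, 1.07, was that of all marked genes, also 1.07. The 4 wide ratios included 2 neuronal and 2 ubiquitous genes.

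The count of 4 depended on weak peaks and on how peaks were joined. At Ppp3ca part of the difference lay in the main peak, of 6223 bases in pool I and split into 3172 and 1957 in pool J. Over peaks whose −log10 q was 5 or more, or 10 or more, Nrgn alone was at least 25% wider in pool I (1 of 9), against 12.6% and 11.7% of genes. With peaks joined only where they touched it was Ppp3ca alone (1 of 9), against 13.3%. Its main peak in pool J was then cut at a gap of 86 bases, which left 3172 bases and a ratio of 1.96. Over peaks whose −log10 q was 10 or more the ratio of Ppp3ca was 1.19. Counted as bases under peaks within a fixed span, that of both pools' domains, the ratios of pool I to pool J were 1.41 at Ppp3ca, 1.31 at Ppp3r1, 1.24 at Camk2a and 1.05 at Nrgn. Pool I had 24508 peaks in all and pool J 21573. Whether that difference in peak number bears on the ratios of single genes was not tested.

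**Figure D4:**
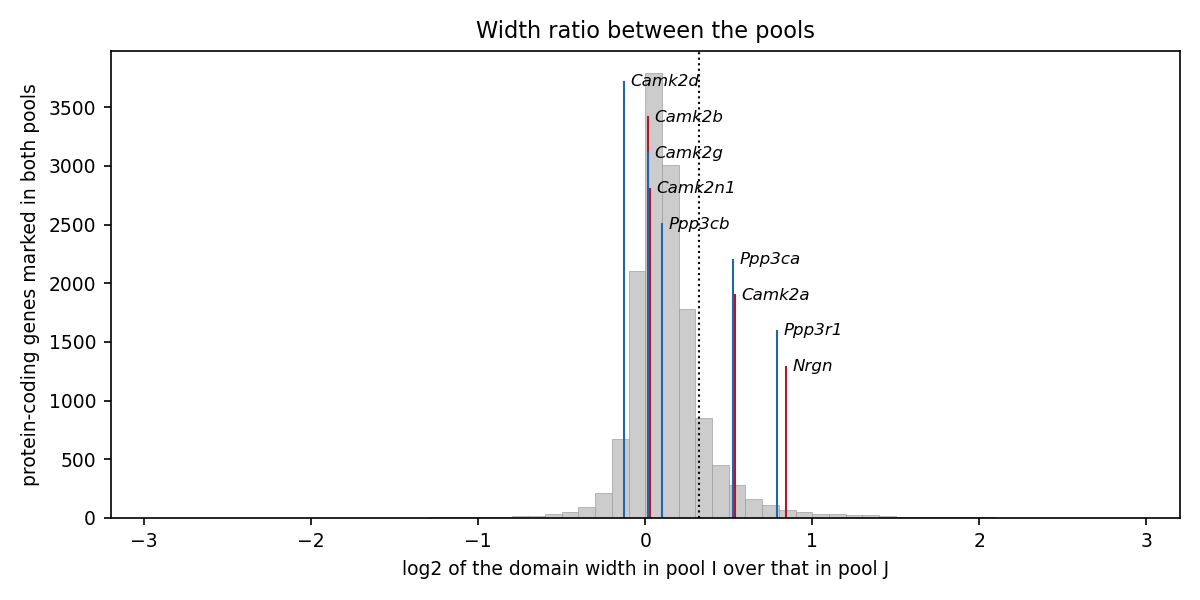
Number of protein-coding genes marked in both pools (grey bars, y axis) by the log2 of the ratio of domain width in pool I to pool J (x axis), with the 9 genes as coloured lines, red for neuronal and blue for ubiquitous, whose heights carry no value. Ppp3ca, Camk2a, Ppp3r1 and Nrgn lie to the right of the dotted line, which marks 25% wider in pool I, and the other 5 lie within the bulk.

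Each gene had 1 promoter domain in each list, except Nrgn in pool J with 2. Of the 82 annotated starts of the 9 genes, 50 had a peak within 1000 bases and 32 had none, with the same counts in the 3 lists. The share over all annotated starts is not given, so these counts describe the 9 genes alone. At Camk2a 4 of 6 starts were marked, and the 2 bare ones are those of coding transcripts that begin far inside the gene. At Camk2d 16 of 26 starts were marked and at Camk2g 10 of 17, with 5 of 9 coding starts bare at Camk2g. At Ppp3ca 2 of 7 and at Ppp3cb 4 of 9 were marked, and each coding start of these 2 genes was among them.

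Some other peaks lay inside these genes, and no count over all protein-coding genes is given beside theirs. Beside the promoter domains the replicated list had 8 peaks within the 9 gene bodies. The strongest, at the end of Camk2g (14:20733413-20735139, enrichment 21.4), lay within 1000 bases of a start of Ndst2, the neighbouring gene of a heparan sulfate enzyme. The other 7 had enrichments between 2.9 and 5.69 and no annotated start within 1000 bases. The highest of these was a peak of 951 bases in an inner part of Camk2b, at 11:6006358-6007308, the highest other peak of Camk2b in each pool having an enrichment of 5.77 (pool J) and 5.89 (pool I).

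Of 30 other genes of the pathway, 29 were marked in each of the 3 lists, against 65.2%, 63.9% and 64.8% of all protein-coding genes in the replicated, pool J and pool I lists. The exception was Ppp3r2, the regulatory subunit gene of testis. Their median width was 2872 bases in pool J, 3055 in pool I and 2966 in the replicated list. In the replicated list 24 of the 29 lay above the median of all marked genes and 4 were among the widest 5.0%. In pool J these counts were 23 and 4, and in pool I 24 and 5. Among the 4 of the replicated list were Calm2 with 9554 bases and Calm3 with 5661, both of which encode calmodulin, the calcium sensor of both enzymes. They were steady between the pools: Calm2 had 9499 bases in pool J, and 9586 bases in pool I, and Calm3 5846 and 5685. The narrowest 4 were Pnck, a kinase of the CaMKI family, with 1044 bases and an enrichment of 7.83, Nfatc2 with 1536, the calcineurin regulator gene Rcan3 with 1726 and the CREB coactivator gene Crtc2 with 1767. Crtc2 had at the same time a high enrichment of 30.1.

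The paralogues Camk2n2 and Ppp3cc were named after their values were seen. Camk2n2, the second CaMKII inhibitor gene, had 3513 bases in the replicated list, against 5765 at Camk2n1. Ppp3cc, the catalytic subunit gene known from testis, was marked with 2877 bases and an enrichment of 22.7, against 2091 bases at Ppp3cb.

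Among 11034 genes whose domains held no other protein-coding gene in any of the 3 lists, the width pattern of Camk2a (12141, 5668 and 8203 bases in the replicated, pool J and pool I lists) was nearest to that of Schip1 (12814, 5740 and 8316), at a Euclidean distance of 0.082 in log2 width over the 3 lists. Gria2 (9494, 6192 and 9543) and Baiap2 (11276, 7747 and 8541) followed at 0.436 and 0.467. For Camk2d (4059, 4023 and 3680) the nearest included Mprip (4034, 3975 and 3586) and Ankrd28 (4226, 4057 and 3678), at distances of 0.042 and 0.059. These likenesses rest on 3 lists of which the replicated one was derived from the reads of the other 2.

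Defining markers of neurons carried the mark and those of other tissues did not. All 7 excitatory and pan-neuronal markers examined (among them Rbfox3, Snap25, Syt1, Slc17a7, Tbr1 and Neurod6) were marked in each list, with a median enrichment of 20.3 in the replicated list. The 3 markers of inhibitory neurons were also marked in each, with a median of 6.1 there. None of 3 markers of other tissues (Alb, Myh6 and Ins2) was marked. Of the 22 brain markers 17 were marked in pool J, 19 in pool I and 18 in the replicated list. Of all protein-coding genes 63.9%, 64.8% and 65.2% were marked in the same order, and the marker counts were not tested against these shares. Among the brain markers missing from the replicated list were the astrocyte gene Gfap and the microglial genes P2ry12 and C1qa. The share of each cell type in the marks of the 9 genes was not tested.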

How the data were processed

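The authors deposited 4 lists of H3K4me3 peaks on mm10, called per pool, on the pooled reads of both pools, and on both pools as replicated peaks, per the text files deposited with the libraries. The aligner, peak caller and read numbers were not given in the sources used here. Depth is therefore unknown. The enrichment of a peak is the authors' ratio, taken as a fold over control because those text files name such tracks, which the lists do not state, and was used only to describe and rank peaks within a list. The deposited −log10 q values served as filters. Positions are in bases, counted from 1.

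Gene models were GENCODE M21, without mitochondrial genes. Percentiles and the thresholds of the widest domains were computed within each list. Domains were built with Python 3.11.15 and pandas 2.3.3, and the steps were tested on simulated peaks with known answers. Members and lists were chosen with earlier results of these data known. Named were the 9 members, of the 30 pathway genes those unmarked, those marked in 1 pool alone, the 4 widest and the 4 narrowest, and the 3 genes nearest in width to Camk2a and to Camk2d. Some genes that this rule names are not reported here. No test was made. Alternatives changed the joining distance, window, starts, q filter, overlap, choice of domain, list, thresholds and the class of Ppp3ca.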

Additional observations from a re-analysis of the deposited data

How the results depend on the processing

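Of 129 recomputed summary values, 106 stayed within the spread between the pools or, for counts, within 1.5 times, and 23 moved. The ratio of neuronal to ubiquitous median width stayed above 1 in all 14 alternatives, but not all of them could move it. It was unchanged at 1.81 with windows of 500 or 2500 bases, coding starts alone or an overlap of 100 bases. The domain of the highest peak and the list of pooled reads also gave 1.81. Both medians were unmoved in these settings, so they do not show how steady the ratio is. In the others the ratio was 1.02 with peaks joined only where they touched (neuronal median 4139.5) and 1.95 with peaks joined up to 2500 bases. It was 1.31 over peaks whose −log10 q was 5 or more, and 10 or more (neuronal median 5337.5 in both). For bases under peaks, an alternative added after seeing the data, it was 1.68. It was 1.29 in the pool J list (neuronal 5208), 1.39 in the pool I list (ubiquitous 4964) and 1.62 with Ppp3ca as neuronal (neuronal 5765). The count of members at least 25% wider in pool I, 4, was 1 with touching peaks and at both q filters, and 2 at 1.5-fold. The median pool ratio of 1.07 was 1.05 with touching peaks and 1.02 over peaks whose −log10 q was 5 or more. The median enrichment percentile was 82.3 in pool J, and the median pathway width 2736 with touching peaks and 2764 for bases under peaks. Widths of single members moved in 26 of 117 cases, and the cause was not tested. No paired analysis was possible because both libraries of a pool share 1 list. Depth is unknown, so a missing weak peak in 1 pool is not a sign of absence.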

Other observations

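Among the 29 marked pathway genes, 2 were at least 25% wider in pool I, against 13.6% of all genes marked in both pools, and 0 in pool J, against 1.63%. The median ratio of the 29 was 1.04. Ppp1cc, which encodes a catalytic subunit of protein phosphatase 1, a partner of calcineurin in synaptic dephosphorylation, spanned 2843 bases in pool J, 6291 in pool I and 2966 in the replicated list. Camkv, the gene of a kinase-like protein of neurons that lacks kinase activity, spanned 2747, 3870 and 3097 bases.

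The replicated list was close to a part of the list of pooled reads: 24595 of its 25446 peaks were found there with the same coordinates and enrichment. For Ppp3ca the pooled-reads list gave 7177 bases and the replicated list 5281, and for Camk2b 4064 and 4800.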
